A study of Mus musculus with 9 samples.

Results

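The cation-chloride cotransporters followed here are 4 genes, Slc12a2 (NKCC1), Slc12a5 (KCC2), Slc12a7 (KCC4) and Slc12a4 (KCC1), chosen by name among the 32787 entries of the count tables. They were read in single cells of the dissected ventral midbrain, sorted from VGAT-Cre:Ai14:Pitx3-GFP mice into 384-well plates and profiled with CEL-seq2, which counts mRNA molecules by a random tag at the 3′ end. Cells with tdTomato alone were sorted on 4 plates at embryonic day 16 (E16) and on 3 plates on the day of birth (P0), here called VGAT plates. Cells with both tdTomato and GFP filled 1 plate at each stage, here called VGAT+Pitx3 plates. All groups carry the same alleles. The tdTomato of Ai14 marks every cell that has had VGAT-Cre at any time, so it reports lineage and not present use of VGAT, and GFP reports Pitx3, a gene of dopamine neurons. Brains from several litters were used at each stage, and the labels do not tie a plate to an animal, so p-values measure the spread between plates.

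Wells were kept as cells when they had at least 2000 genes, at most 50000 counts and under 15% mitochondrial counts. This left 2035 of 3455 wells, with 1026 cells on the E16 VGAT plates and 434 on the P0 VGAT plates. The plates are not equally deep, with 4005525 to 5408710 counts on the E16 VGAT plates against 1435919 to 3344587 at P0, and P0 replicate 1 holds 44 cells. Each column name carried 2 plate labels that differ for 6 of 9 plates. The first label was used, and under it Pitx3 stood at 147 CPM (counts scaled to a fixed library total) and 78.0 CPM on the VGAT+Pitx3 plates and at no more than 0.38 CPM on the VGAT plates. Gad1, which makes GABA, was between 796 and 1210 CPM on the VGAT plates. Single markers of other cell types do not stand for their lists. Gfap of astrocytes was at 0 on 6 of 7 VGAT plates. P0 replicate 2 was 1 of them, although the glial markers Fabp7 and Aqp4 stood at 246 and 37.8 CPM there. Cldn5 of vessels and Mki67 of dividing cells did not exceed 0.561 CPM on the VGAT plates. The sum of 6 vascular markers was 1.52 to 4.68 CPM on the E16 VGAT plates and 1.17 to 10.6 CPM at P0. For 6 oligodendrocyte lineage markers it was 53.2 to 65.1 CPM and 45.8 to 90.5 CPM. Both sums were highest on P0 replicate 2. The summed level of 8 astrocyte and radial glia markers was 42.6 to 61.7 CPM on the E16 VGAT plates and 43.7 and 47.0 CPM on P0 replicates 1 and 3, but 450 CPM on P0 replicate 2. The sum of 6 microglia markers was 39.1 CPM on E16 replicate 2 and 56.7 CPM on P0 replicate 2, where none of them was at 0, against 2.58 to 6.47 CPM on the other VGAT plates, where 3 or 4 of them were at 0.

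Cation-chloride cotransporters set the chloride concentration inside neurons and with it the effect of GABA. NKCC1 brings sodium, potassium and chloride into the cell, whereas KCC1, KCC2 and KCC4 carry potassium and chloride out. Young neurons are known for high internal chloride, at which GABA depolarizes, and in many brain regions the rise of KCC2 during maturation goes along with the change to inhibition. KCC2 is restricted to neurons, while NKCC1, KCC1 and KCC4 are also found in glia and other tissues.

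KCC2 mRNA starts at either of 2 first exons. The upstream start gives the KCC2a form and the downstream start the KCC2b form. The counts lie near the 3′ end and are summed per gene, so all Slc12a5 values below are the sum of both forms. The promoter windows of both starts are shown because nothing in the counts separates them. They come from RefSeq on GRCm38.p6, plus strand, chr2:164960596-164960895 for the upstream start and chr2:164967738-164968037 for the downstream start, and the capitals mark the E-box CACGTG, the letters known as the motif of the factors Usf1 and Usf2.
Slc12a5 upstream start: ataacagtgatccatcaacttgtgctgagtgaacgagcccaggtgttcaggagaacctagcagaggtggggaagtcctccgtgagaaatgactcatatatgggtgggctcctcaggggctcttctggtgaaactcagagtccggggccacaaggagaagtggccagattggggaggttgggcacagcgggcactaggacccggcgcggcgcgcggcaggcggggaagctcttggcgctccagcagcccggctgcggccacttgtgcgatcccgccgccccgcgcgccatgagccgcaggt
Slc12a5 downstream start: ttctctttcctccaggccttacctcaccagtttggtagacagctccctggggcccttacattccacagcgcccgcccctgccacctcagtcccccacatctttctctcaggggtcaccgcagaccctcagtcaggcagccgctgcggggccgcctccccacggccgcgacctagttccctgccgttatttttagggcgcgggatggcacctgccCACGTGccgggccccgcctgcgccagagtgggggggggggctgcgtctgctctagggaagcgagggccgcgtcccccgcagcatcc
The E-box reads the same on both strands. It begins at base 215 of the downstream window and is not among the 300 letters of the upstream window. Of 32851 promoter windows of the same length, 7.15% hold it. The match describes the letters of the window, and binding was not measured here. The 2 windows of Slc12a7 overlap and hold the same 6 letters at 1 shared position, and the window of Slc12a4 does not. The motif GCGTGGGCG of the Egr factors was in no window of these 3 genes on either strand and is in 0.612% of all windows. A window of Slc12a2 was not analysed here.

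Slc12a2 (ENSMUSG00000024597), the chloride importer, lies on chromosome 18 (GRCm38, 57878678 to 57946821, plus strand) and overlaps no other annotated gene. On the E16 VGAT plates it was at 51.5, 49.0, 62.2 and 63.6 CPM, and on the P0 VGAT plates at 44.4, 41.7 and 42.6 CPM. Every P0 plate was below every E16 plate, with means of 56.6 ± 7.41 CPM (SD, n = 4) and 42.9 ± 1.39 CPM (SD, n = 3). Of all genes tested, 10.1% were likewise lower at P0 with no overlap of plates. In a quasi-likelihood test over all genes with edgeR, the log2 fold change from E16 to P0 was -0.39 (SE 0.14, 95% interval -0.69 to -0.09) with an adjusted p of 0.114, which does not pass the threshold of 0.05. With each cell thinned to 4000 counts the difference was -0.77 (adjusted p = 0.0599). In plate sums, fewer cells with the mRNA and less mRNA per cell cannot be told apart.

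Slc12a5 (ENSMUSG00000017740), the extruder of neurons, lies on chromosome 2 (164960802 to 164999731, plus strand). It was at 222, 300, 234 and 225 CPM on the E16 plates and at 297, 359 and 306 CPM on the P0 plates. The stages overlap through 1 plate, E16 replicate 2, which is above the lowest P0 plate, and the other 3 E16 plates are below all P0 plates. The means were 245 ± 37.2 CPM (SD, n = 4) at E16 and 321 ± 33.8 CPM (SD, n = 3) at P0. The log2 fold change was 0.40 (SE 0.13, 95% interval 0.11 to 0.69), with an adjusted p of 0.0976 by edgeR. The call depends on the setting: without E16 replicate 2 the difference was 0.51 (adjusted p = 0.0308), with each cell thinned to 4000 counts it was 0.52 (adjusted p = 0.0462), and over all 9 plates with the population as a covariate it was 0.46 (adjusted p = 0.0387), a fit that was added after the data had been seen. Without P0 replicate 2, the plate with the highest level of both Slc12a5 and the glial markers, it was 0.30 (adjusted p = 0.280). Dropping instead the cells with at least 5 counts of glial markers, of which that plate held 8, gave 0.42 (adjusted p = 0.0885). E16 replicate 2 and P0 replicate 2, on which the overlap and the size of the difference turn, are also the plates with the highest microglia markers, whose part in the result was not tested.

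**Figure D1:**
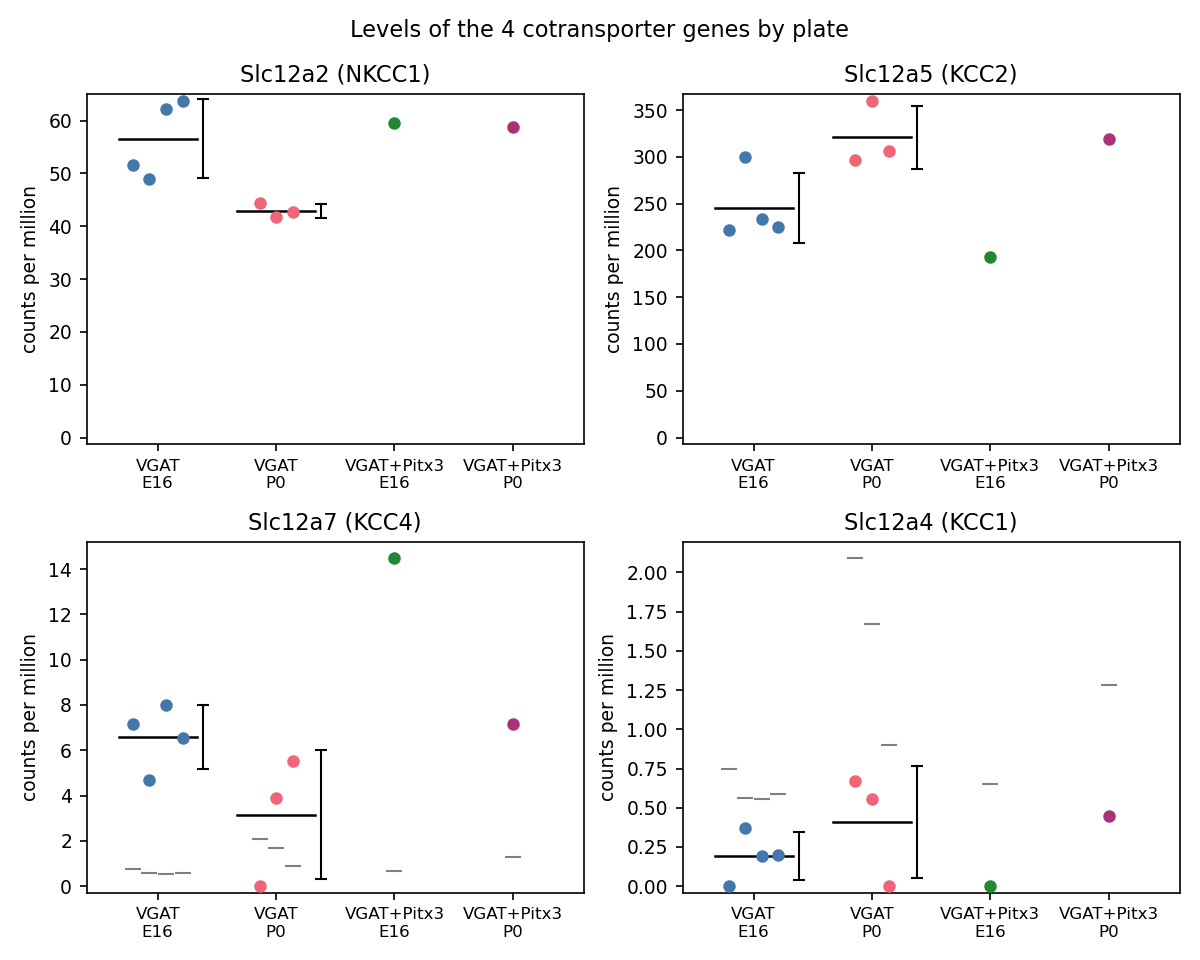
Levels of the 4 genes in CPM (y axis) on each plate (points), grouped by sort and stage (x axis), with the mean (line) and SD (bar beside it) where a group has at least 3 plates; grey ticks in the lower panels mark the level of 3 counts on that plate. Slc12a2 was at 41.7 to 44.4 CPM on the P0 VGAT plates, below all E16 VGAT plates, Slc12a5 was highest at P0, with 359 CPM, and Slc12a4 stayed under the level of 3 counts on all 9 plates.

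Slc12a7 and Slc12a4 code for extruders that many tissues use. Slc12a7 (chromosome 13, 73733094 to 73816754, plus strand) was at 7.14, 4.68, 7.99 and 6.54 CPM on the E16 VGAT plates and at 0, 3.89 and 5.55 CPM at P0. The plates overlap, and the values rest on 129 counts at E16 and 26 at P0. The log2 fold change was -0.84 (SE 0.50, 95% interval -1.92 to 0.25, adjusted p = 0.333), so a change of either direction was not detectable at this depth. Without P0 replicate 1, which has 44 cells and no Slc12a7 count, it was -0.43 (adjusted p = 0.499), and without P0 replicate 3 it was -1.63 (adjusted p = 0.217).

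Slc12a4 (chromosome 8, 105943590 to 105966097, minus strand) had 7 counts in all 9 plates together. No plate held more than 2, which is under the floor of 3 counts, and 3 plates held none. It was therefore left out by the filter of edgeR, and no fold is given. Its locus overlaps an antisense gene, Gm16156, and whether the counting used strand is not stated.

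Read together, 3 of the 4 genes could be tested between stages and 0 passed, against 624 of 13639 genes (4.58%). At an unadjusted p under 0.05, Slc12a2 and Slc12a5 are among the 24.1% of genes that reach it. The median log2 fold change over all genes tested was 0.02. In cells with Six3 alone and in cells with Pax5 alone, both markers of GABA neurons of the substantia nigra pars reticulata, Slc12a2 differed by -0.52 and -0.44 and Slc12a5 by 0.27 and 0.46 on the log2 scale, with adjusted p-values from edgeR between 0.389 and 0.794.

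The ratio of Slc12a5 to Slc12a2 counts compares extruder and importer within a plate and does not depend on scaling. Its size has no meaning by itself, since the genes differ in length and capture, so only its change between plates is read. The log2 ratio was 2.11, 2.62, 1.91 and 1.82 on the E16 VGAT plates and 2.74, 3.11 and 2.84 on the P0 VGAT plates. All P0 plates were above all E16 plates, and the means of 2.11 ± 0.36 (SD, n = 4) and 2.90 ± 0.19 (SD, n = 3) differed by 0.78. The exact two-sided permutation p was 0.0571, which is the smallest that 4 against 3 plates allow, so this test cannot reach 0.05. On the VGAT+Pitx3 plates, with 1 plate per stage and no replicate check, the ratio was 1.70 at E16 and 2.44 at P0. With exonic counts only, the difference of the VGAT plates was 0.69, and with cells thinned to 4000 counts 1.43, again with no overlap.

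**Figure D2:**
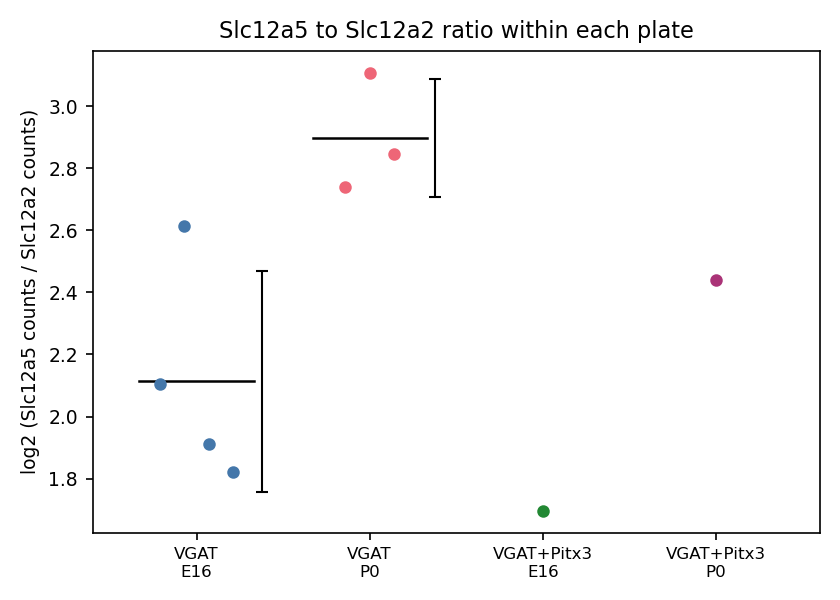
The log2 of Slc12a5 counts over Slc12a2 counts (y axis) on each plate (points), by sort and stage (x axis), with mean (line) and SD (bar) for the VGAT plates. The P0 VGAT plates lie between 2.74 and 3.11, above the highest E16 VGAT plate at 2.62, and the VGAT+Pitx3 plate is higher at P0 (2.44) than at E16 (1.70).

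The share of cells with at least 1 count was compared after each cell had been thinned at random to 4000 counts, since deeper cells show more genes. 79 cells with fewer counts were left out. Slc12a2 was found in 19.1, 19.3, 22.5 and 21.8% of cells on the E16 VGAT plates and in 9.30, 13.9 and 12.4% on the P0 plates, so that all P0 plates were lower, with a mean difference of -8.81 percentage points. The Slc12a5 shares were 56.8, 61.4, 57.4 and 51.5% at E16 and 67.4, 72.7 and 71.0% at P0, so that all P0 plates were higher, here by 13.6 points. The exact permutation p was 0.0571 for either gene, the smallest possible, and 0.114 after adjustment over the 4 genes. Slc12a7 was found in 2.23% ± 0.657 of cells at E16 (SD, n = 4) and 0.935% ± 0.891 at P0 (SD, n = 3), an exact permutation p of 0.114.

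The depth left by thinning bears on these shares. With 8000 counts per cell, which kept 1547 cells, the differences were -10.2 points for Slc12a2 and 10.6 points for Slc12a5. Without thinning, they were -16.1 and 2.22 points, and the Slc12a5 shares then overlapped, with 82.3 to 100% of cells on any plate. On the VGAT+Pitx3 plates, 50.2% of cells had Slc12a5 at E16 and 67.9% at P0. Slc12a2 was in 14.0% and 21.3% of these cells at 4000 counts but in 36.1% and 32.8% at 8000, with levels of 59.5 and 58.8 CPM, so no order of the stages is read from its share there.

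**Figure D3:**
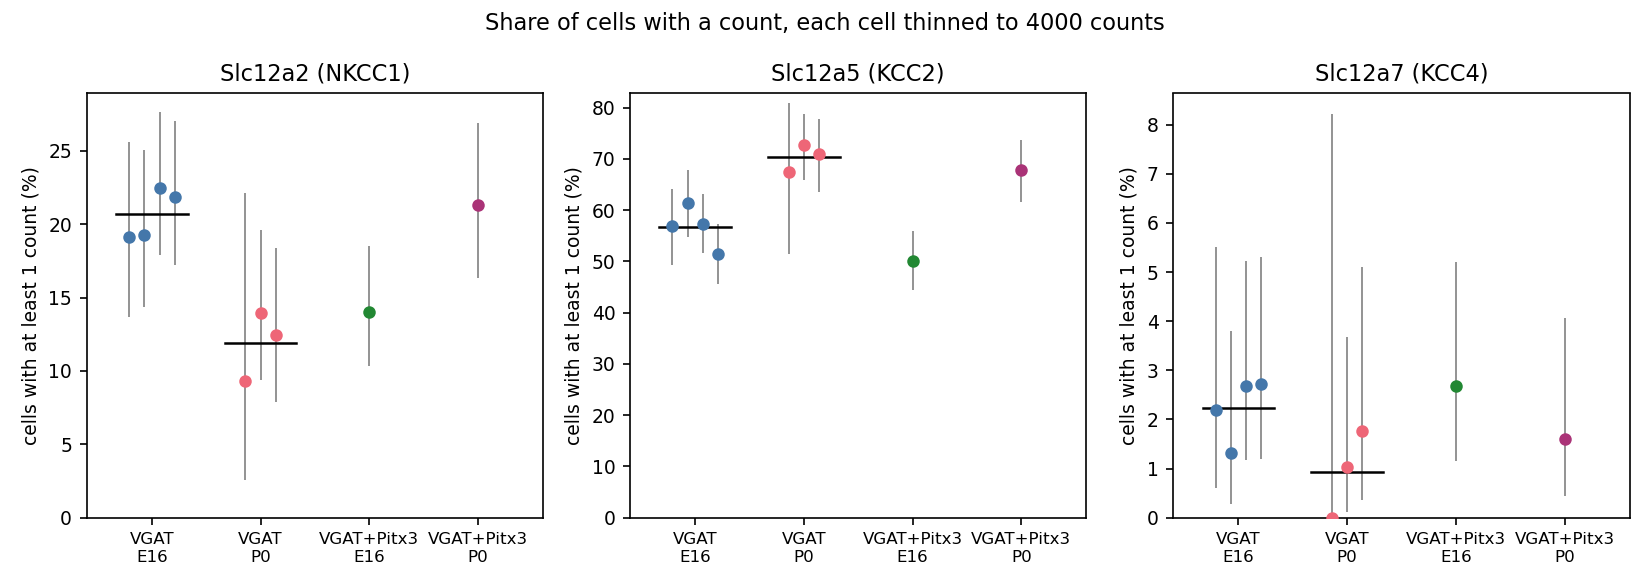
Share of cells with at least 1 count of Slc12a2, Slc12a5 or Slc12a7 (y axis, percent) on each plate (points) after thinning to 4000 counts, with exact 95% binomial intervals that cover counting error only (grey) and the mean of the plates (line). For Slc12a2 the P0 VGAT plates (9.30 to 13.9%) lie below the E16 VGAT plates, and for Slc12a5 (67.4 to 72.7%) above them.

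Importer and extruder were next compared within cells. Among thinned cells with Slc12a2, 59.3% also had Slc12a5, and among cells without Slc12a2, 61.4% did, as means over the 8 plates with at least 5 cells of both kinds. The difference of -2.15 points (SD 5.95) was positive on 4 plates and negative on 4, with an exact two-sided sign-flip p of 0.359. Of the 6 pairs among the 4 genes, 4 had enough cells to test, and none had an adjusted exact p below 0.820. For Slc12a4 with Slc12a2 this says nothing, since only 2 of 8 plates had a difference other than 0 and the exact p could not be below 0.500. The sign of the Slc12a5 and Slc12a2 pair is not stable. At 8000 counts the difference was 2.68 points, positive on 8 plates and negative on 1 (exact sign-flip p = 0.230). Without thinning, where cells differ in depth, it was 3.30 points, positive on 7 and negative on 1 (exact sign-flip p = 0.0859). No tendency of the importer and the main extruder to occur together or apart was detectable at this depth.

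The authors' tables give intronic and exonic counts apart, and intronic counts stem from unspliced RNA. Of the Slc12a2 counts, 32.5% ± 5.10 were intronic on the E16 VGAT plates (SD, n = 4) and 26.2% ± 7.43 on the P0 plates (SD, n = 3), with overlap and an exact permutation p of 0.400. The Slc12a5 values were 8.89% ± 1.94 and 6.84% ± 1.57, likewise with overlap (exact permutation p = 0.229). With intronic counts only, the stage difference of Slc12a2 was -0.51 (adjusted p = 0.303) and that of Slc12a5 0.30 (adjusted p = 0.474) by edgeR. Slc12a7 had 0 to 7 intronic counts on a plate and Slc12a4 0 or 1, too few to compare their intronic shares between stages.

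The cells of the VGAT plates come from several nuclei, and the study names them by marker genes such as Six3, Pax5, Otx2, Nkx2-2 and the Dlx genes. When a cell was given to a class for having counts of markers of exactly 1 of these 5 classes, 563 of 1460 cells fell in a class. Over 5 classes with the plate as a block, 559 of 7694 genes (7.27%) differed, but Slc12a2 (adjusted p = 0.759) and Slc12a5 (adjusted p = 0.459) did not pass by edgeR. Because 755 cells carried markers of more than 1 class, a second grouping was added after the data had been seen. It takes the marker with at least 3 counts and at least 3 times the counts of any other class, and it gave 868 cells a class.

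With this grouping, Slc12a5 differed between classes (adjusted p = 0.000232, edgeR), as did 17.5% of the 10111 genes tested. The lowest mean was that of the Otx2 cells, at 189 ± 79.0 CPM (SD, n = 6 plates). The other classes had mean levels of 281 ± 74.0 CPM (Dlx, n = 4), 288 ± 55.2 CPM (Nkx2-2, n = 7), 305 ± 66.9 CPM (Six3, n = 7) and 325 ± 77.8 CPM (Pax5, n = 6). The Dlx mean rests on the 4 E16 plates alone, while the other classes include P0 plates, so these means are not ranked against each other. With the plate as a block, the log2 difference to Six3 cells was 0.10 for Dlx, -0.05 for Nkx2-2 and 0.15 for Pax5 cells. Otx2 cells were lower than Six3 cells and than Pax5 cells on 6 of 6 plates, lower than Dlx cells on 4 of 4, and lower than Nkx2-2 cells on 5 of 6. In the first grouping they were lower than Six3 cells on 4 of 6 plates, than Pax5 cells on 4 of 5 and than Nkx2-2 and Dlx cells on 3 of 4 each, with a fitted log2 difference to Six3 cells of -0.40. In the second grouping, the Otx2 cells had 120, 226, 124 and 112 CPM on the E16 plates. On P0 replicates 2 and 3, with 9 and 12 such cells, they had 263 and 286 CPM. The stages did not overlap in these cells or in Pax5 cells, each with only 2 P0 plates. They did in Six3 cells (338 CPM on E16 replicate 2, 323 CPM on P0 replicate 3) and in Nkx2-2 cells (303 CPM and 280 CPM on the same plates). In the first grouping, the stages overlapped in Otx2 cells (367 and 313 CPM on these plates), Pax5 cells (414 and 292 CPM) and Six3 cells, but not in Nkx2-2 cells. The share of all genes without overlap within a class was not computed, so no stage difference within a class is read from this. By leading marker, the fitted log2 difference of Otx2 to Six3 cells was -0.73, and the adjusted p stayed at or below 0.0045 with any 1 plate left out. Otx2 cells are few, with 102 cells on the VGAT plates, and somewhat shallower, with a median of 15084 counts per cell against 17971 for Six3 cells, whose part in the difference was not tested.

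The same grouping gave no call for Slc12a2 (adjusted p = 0.232, edgeR). Its mean was 66.2 ± 37.3 CPM in Otx2 cells, 63.9 ± 14.7 CPM in Six3 cells, 54.1 ± 14.2 CPM in Pax5 cells, 53.3 ± 26.7 CPM in Dlx cells (E16 plates alone) and 46.5 ± 17.5 CPM in Nkx2-2 cells, over the same plates as above, and the plates overlap widely. With the plate as a block, the log2 difference to Six3 cells was 0.20 for Otx2, -0.24 for Pax5, -0.35 for Nkx2-2 and -0.45 for Dlx cells.

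**Figure D4:**
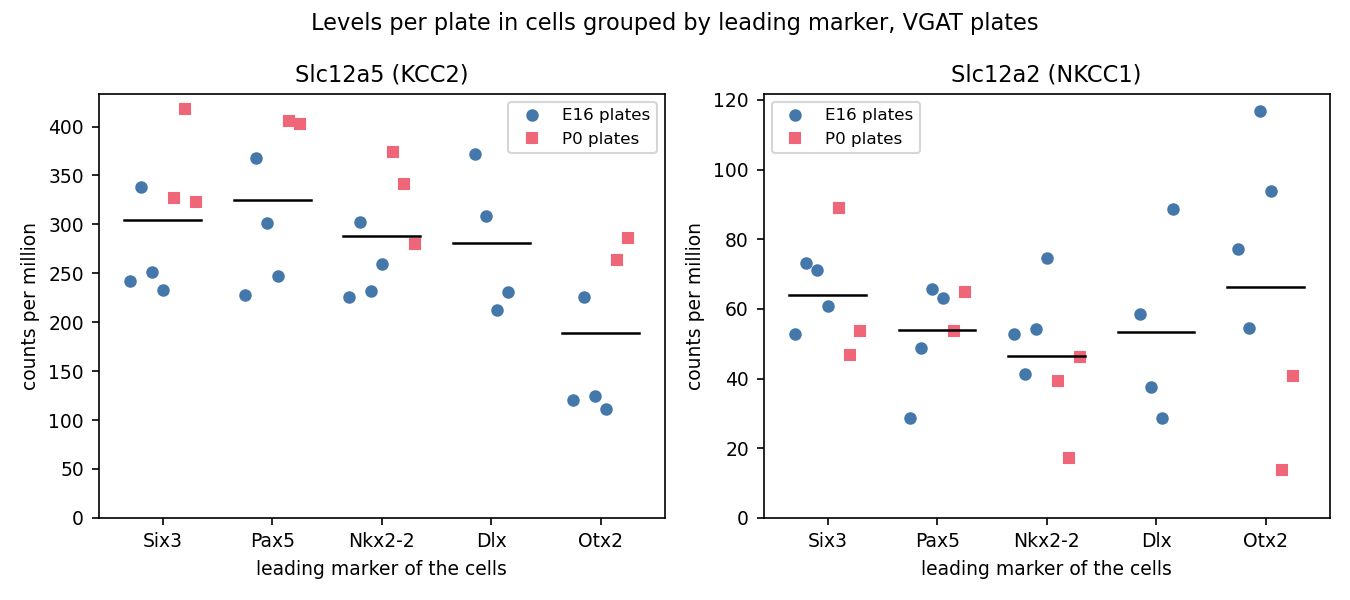
Levels in CPM of Slc12a5 and Slc12a2 (y axes) in cells grouped by their leading marker (x axis), 1 point per VGAT plate with at least 5 such cells, with circles for E16, squares for P0 and the mean as a line. In Otx2 cells, Slc12a5 had a mean of 189 CPM against 281 to 325 CPM in the other classes, while the Slc12a2 points of the classes overlap.

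The VGAT+Pitx3 plates hold cells with markers of dopamine neurons, which on both plates had Th, the enzyme that makes the dopamine precursor, at 474 CPM or more against 6.16 CPM or less on VGAT plates. Gad1 was at 14.5 and 10.3 CPM there, and Slc17a6, a glutamate transporter of vesicles, at 106 and 206 CPM against means of 3.30 and 5.00 CPM on the E16 and P0 VGAT plates, so the populations also differ in transmitter markers. Gad2, the second enzyme that makes GABA, was higher there, at 936 and 1045 CPM against means of 599 and 514 CPM (log2 difference 0.83, adjusted p = 0.000269), and Slc32a1, which codes for VGAT, differed by 0.10 (95% interval -0.23 to 0.43, adjusted p = 0.822). With stage as a covariate, 1306 of 14624 genes (8.93%) differed between the populations and none of the 3 members tested did. Slc12a2 was at 59.5 CPM at E16 and 58.8 CPM at P0 on the VGAT+Pitx3 plates, inside the range of the E16 VGAT plates and above all P0 VGAT plates. Its log2 difference to VGAT plates was 0.24 (95% interval -0.07 to 0.56, adjusted p = 0.459). Slc12a5 was at 193 CPM at E16, below all 4 E16 VGAT plates, and at 319 CPM at P0, within the P0 VGAT plates, a log2 difference of -0.18 (95% interval -0.50 to 0.14, adjusted p = 0.629). Both values turn on the single plate per stage: without the E16 VGAT+Pitx3 plate they were 0.44 for Slc12a2 and -0.02 for Slc12a5, and without the P0 plate 0.06 and -0.36.

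Slc12a7 had the largest estimated difference between the populations among the 3 members tested, but it did not pass the threshold either. It was at 14.5 CPM on the VGAT+Pitx3 plate at E16, the highest level of all 9 plates, and at 7.18 CPM at P0, above all 3 P0 VGAT plates. The log2 difference was 1.08 (SE 0.41, 95% interval 0.19 to 1.96) with an adjusted p of 0.153 by edgeR. Without the filter on low counts it was 1.06, with an adjusted p of 0.0334. The 64 counts of the E16 plate came from 31 of 304 cells, with 7, 6 and 5 counts in the highest 3, and without wells over 2 times the median count of their plate the difference was 0.66 (adjusted p = 0.569). The summed glial markers were at 240 and 208 CPM on these plates, above all VGAT plates but P0 replicate 2, while without the cells over the glial limit the Slc12a7 difference was 1.08.

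Whether the stage difference depends on the population was asked with an interaction term over 9 plates. It called 0 of 15724 genes by edgeR, with 998 (6.35%) at an unadjusted p under 0.05, and DESeq2 called 3. Only 1 VGAT+Pitx3 plate per stage enters, which is assumed to vary like the VGAT plates. The difference of the stage effects was 0.38 for Slc12a2 (95% interval -0.24 to 0.99), 0.33 for Slc12a5 (-0.28 to 0.95) and -0.17 for Slc12a7 (-2.16 to 1.82), and these wide intervals leave room for effects as large as those seen between stages.

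Genes that work with the cotransporters were grouped in lists by function. The Na,K-ATPase makes the sodium and potassium gradients that drive these carriers, and 2 of the 4 subunits reported here that could be tested rose from E16 to P0, with 0 falling, beside 2.84% of all genes called higher and 1.74% called lower. Atp1b1, the common beta subunit, was at 443, 601, 550 and 586 CPM at E16 and at 709, 910 and 952 CPM at P0 (log2 fold change 0.67, adjusted p = 0.0252). Atp1b2, a second beta subunit, was at 154, 192, 128 and 146 CPM at E16 and at 229, 376 and 234 CPM at P0 (log2 fold change 0.86, adjusted p = 0.0258). For both, the plates of the stages did not overlap, and 10.5% of all genes tested were likewise higher at P0 without overlap. The calls depend on single plates: leaving out 1 plate at a time lost either call in 5 of 7 cases, with adjusted p-values up to 0.0949 and 0.0897. In Six3 cells alone both passed, at 1.02 (adjusted p = 0.0186) and 1.06 (adjusted p = 0.0363). In Pax5 cells neither passed, at 0.34 (adjusted p = 0.645) and 0.74 (adjusted p = 0.365), and with intronic counts Atp1b1 differed by 0.29 (adjusted p = 0.690). P0 replicate 2, the plate with the highest level of Atp1b2, is also the one rich in glial markers, and without the cells over the glial limit the differences were 0.69 and 0.81, both past the threshold.

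The median log2 fold change of these 4 subunits was 0.59. Of 17 partners and regulators of KCC2 that were tested, 1 rose and 0 fell, with a median of 0.10. Ckb, a creatine kinase that binds KCC2, rose by 0.66 (adjusted p = 0.0441), a call lost in 5 of 7 cases with 1 plate left out. Without P0 replicate 2, the plate rich in glial markers, Ckb differed by 0.43 (adjusted p = 0.147), and without the cells over the glial limit by 0.57 (adjusted p = 0.0447). The call was also lost with thinned cells (0.65, adjusted p = 0.0800), in the 9-plate fit (0.51, adjusted p = 0.0673) and within Six3 (0.64, adjusted p = 0.200) or Pax5 cells (0.82, adjusted p = 0.362). Grik2, a kainate receptor subunit found in complex with KCC2, differed by -0.66 (adjusted p = 0.0530), and Pacsin1, a membrane-bending protein known to bind KCC2, by 0.39 (adjusted p = 0.0735). Usf1 and Usf2, the factors whose known motif is the E-box, differed by 0.68 (adjusted p = 0.113) and 0.30 (adjusted p = 0.303). The WNK kinase cascade switches NKCC1 on and the KCCs off by phosphorylation, and its list also holds phosphatase genes and Klhl2, Klhl3 and Cul3. Of 15 genes tested of this list, 0 passed in either direction. The median log2 fold change was -0.09, which mixes these parts and gives no direction of the cascade. None passed among 11 genes of bicarbonate and chloride exchange and 15 chloride channels. Slc12a9, another member of the Slc12 family, differed by 0.08 (adjusted p = 0.870).

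**Figure D5:**
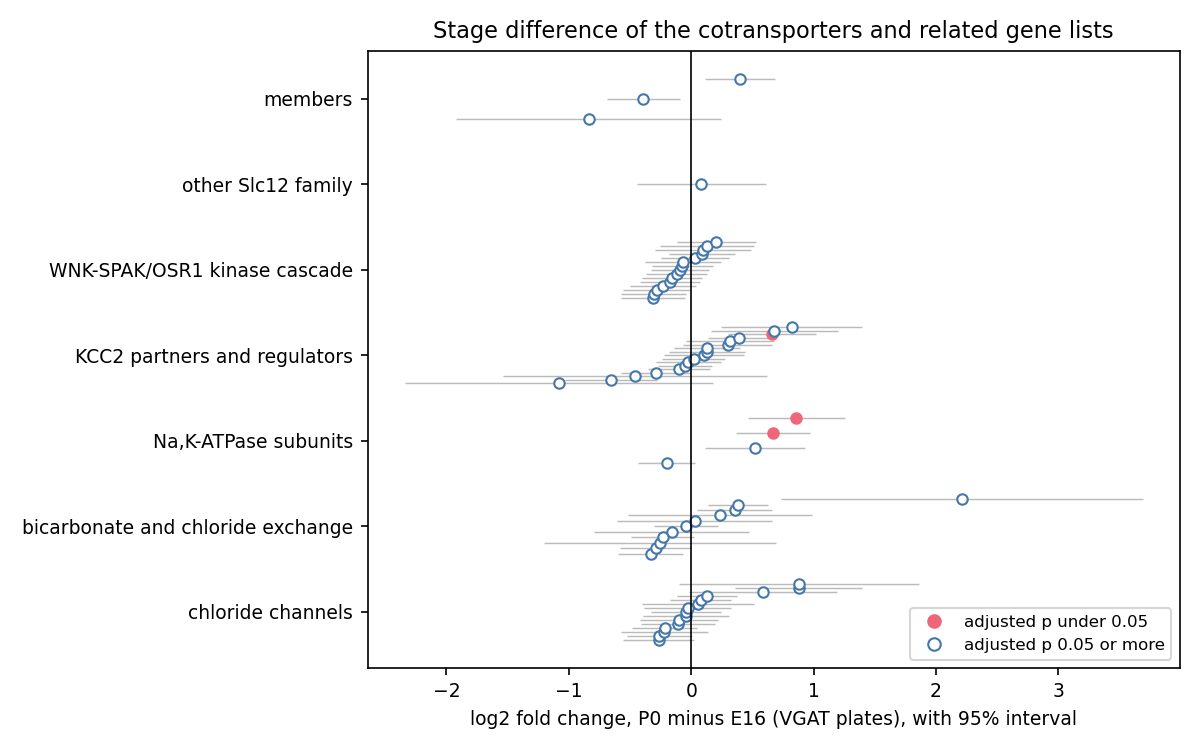
Log2 fold change from E16 to P0 on the VGAT plates (x axis) of each gene tested, by list (y axis), with its 95% interval (line); filled points have an adjusted p under 0.05. In the list of Na,K-ATPase subunits 2 of 4 points are filled, in that of KCC2 partners 1 of 17, and in the others none.

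Between the populations, other genes of these lists differed. In the WNK cascade, 1 of 15 genes passed: Stk39, which codes for SPAK, the kinase that phosphorylates NKCC1 and KCC2, was at 306 and 276 CPM on the VGAT+Pitx3 plates and at 97.2 to 123 CPM on the VGAT plates, without overlap, as were 7.86% of genes higher and 6.56% lower (log2 difference 1.39, adjusted p = 7.15e-07). Among the KCC2 partners and regulators, Bdnf, a growth factor known to regulate KCC2, was higher by 3.18 (adjusted p = 1.43e-07, edgeR). Grik2 differed by -1.29 on the log2 scale (adjusted p = 0.00391, edgeR), or by -0.78 without the E16 and -1.87 without the P0 VGAT+Pitx3 plate. In bicarbonate and chloride exchange, Car2, a carbonic anhydrase, was higher by 1.55 (adjusted p = 0.00919), and Car10, a relative without enzyme activity, was lower by 3.13 on the log2 scale (adjusted p = 1.85e-07). The chloride channel gene Lrrc8a, the subunit of volume-regulated channels that all of them need, was higher by 0.58 (adjusted p = 0.0083). Ano2, a calcium-activated channel, had 15 and 13 counts on the VGAT+Pitx3 plates and 1 to 6 on each VGAT plate. It passed the filter on low counts only with the plates on which it was high, so its call in that direction (2.04, adjusted p = 0.0292) is given as a description. None of 5 Na,K-ATPase subunits passed. Without the E16 VGAT+Pitx3 plate, the calls of Grik2, Lrrc8a (0.52), Car2 (1.35) and Ano2 (1.82) were lost, and those of Lrrc8a (0.62) and Ano2 (2.19) were also lost without the P0 plate. The call of Ano2 was lost in 5 of 9 omissions of a single plate, the others being E16 VGAT replicates 1 and 3 and P0 VGAT replicate 3. The calls of Stk39, Bdnf and Car10 held with any single plate left out. Of all genes, 4.73% were called higher and 4.2% lower on the VGAT+Pitx3 plates.

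The genes with the level most like that of a member over the 9 plates were found by Pearson's r of log2 CPM, among 8183 genes with a mean of at least 20 CPM. For Slc12a2 these were Gria2 (r = 0.97), an AMPA receptor subunit, Rasal2 (0.97), 9030622O22Rik (0.97), Lin7a (0.97) and Klhl29 (0.96). Gria2 was at 785 to 980 CPM on the E16 VGAT plates and at 620 to 673 CPM at P0. For Slc12a5 they were Doc2a (0.96), a calcium sensor of vesicle release, Mal2 (0.96), Krt1 (0.95), Lig1 (0.95) and Add3 (0.95). Mal2 was at 48.5 to 67.0 CPM on the E16 VGAT plates and at 78.3 to 80.9 CPM at P0. The r between Slc12a2 and Slc12a5 themselves was -0.70. These values describe 9 plates that share stage, depth and library, and no test was made of them.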

How the data were processed

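The authors aligned reads with STAR (submitters' notes: mm10; methods: GRCm38, Ensembl release 93) and deposited expected counts per gene and well: distinct molecular barcodes corrected for molecules sharing a barcode, unscaled and unfiltered, for exons, introns and both. Of the deposited non-zero values, 51.7% were not whole, and sums per plate were rounded. Their strandedness is not given in the sources used here. Spike-in and mitochondrial entries did not enter the tests, and the upper limit, given in genes, was applied to counts.

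Plate sums went into edgeR 4.0.16 (R 4.3.3): genes were filtered by filterByExpr, scaled by TMM and compared by a quasi-likelihood F test, with Benjamini-Hochberg adjustment over every gene tested. Levels are CPM with TMM factors over 9 plates. Those in classes use TMM factors over the sums per class and VGAT plate, with the class markers left out, and are on another scale. The SE is the fold change divided by the square root of F. Shares, ratios and intronic shares were compared by exact two-sided permutation over plates. Scripts ran in Python 3.11.15 with scipy 1.17.1, numpy 2.4.6 and pandas 2.3.3, DESeq2 was version 1.42.0, figures were drawn with matplotlib 3.10.9, and the tests were tested on simulated data. The binomial intervals of the shares and the floors cover counting error only. Those of the fold changes come from the quasi-likelihood fit and include the spread between plates. Total counts of 1435919 to 5408710 per plate put 3 counts at 0.555 to 2.09 CPM. Gene positions are from GENCODE vM21.

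Members and gene lists were chosen with earlier results of these data known. The named genes are the members, genes of the lists with their counts, and the 5 genes most like Slc12a2 and Slc12a5. Other settings tried were DESeq2, size factors by RLE, unfiltered genes, counts of exons or introns alone, other limits on cells, thinning, cells of 1 class, omission of single plates and blocking on replicate number; those added after seeing the data were the 9-plate stage fit, the leading-marker classes and the removal of cells rich in glial markers. Some genes of the lists are not reported here and are left out of the list counts and medians.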

Additional observations from a re-analysis of the deposited data

Results flagged for a closer look

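In the E16 VGAT group, the Slc12a5 level of replicate 2, 300.4 CPM, stood apart from the other 3 plates, with a gap of 0.843 of the range, above Dixon's critical value for 4 samples. In cells with Dlx genes as their only class marker, the Slc12a5 level of P0 replicate 2, 558 CPM on 27 counts, stood apart from the other 4 plates, with a gap of 0.868 of the range, above that for 5. Of 38 groups examined in this way, 2 were found, and chance alone gives about 0.05 of groups. No cause was tested.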

How the results depend on the processing

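Of 160 alternative values of the members, 158 kept their direction and 154 also their side of the threshold. Between stages, the 624 genes called became 944 with DESeq2, 1588 without the filter on low counts, 168 with intronic counts, 412 with cells thinned to 4000 counts, 120 in Six3 cells, 9 in Pax5 cells and 971 over all 9 plates. With 1 plate left out the count was 76 to 833, with 265, 92 and 130 without E16 replicates 1, 3 and 4 and 162 and 76 without P0 replicates 2 and 3. The Slc12a5 difference passed when thinned (0.52) and over 9 plates (0.46), and was 0.30 to 0.51 with 1 plate left out. Between populations, 705 genes were called with intronic counts and 625 to 1397 with 1 plate left out, 625 without the E16 and 866 without the P0 VGAT+Pitx3 plate, and Slc12a7 passed without the filter (1.06). The interaction called 3 genes with DESeq2 and 66 without the filter. Its value for Slc12a7 changed sign without wells over 2 times the plate median (0.53) and spanned -0.59 to 0.62 with 1 plate left out. It could not be fitted without either VGAT+Pitx3 plate. Between classes, 1031 genes were called without the filter, 330 without the plate block, 1774 by leading marker, where the adjusted p of Slc12a5 was 0.000232, and 245 to 628 with 1 plate left out, 325 and 245 without E16 replicates 3 and 4. The cause of these changes was not tested.

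The stage difference of the log2 ratio was 1.43 when thinned. Without thinning, the stage differences of the shares of cells were -16.1 points for Slc12a2, 2.22 for Slc12a5, -5.94 for Slc12a7 and 0.526 for Slc12a4 (-0.329 at 8000 counts). The share of cells with Slc12a5 differed by Slc12a2 by 2.68 points at 8000 counts and 3.30 without thinning. That of Slc12a7 differed by Slc12a5 by 0.353 points at 8000 counts, 3.00 without thinning and -0.715 to 0.172 with 1 plate left out, and by Slc12a2 by -0.577 to 0.847 with 1 plate left out.

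The replicate numbers do not pair the plates: plates of the same number correlated at -0.00980 to 0.0756 over 8188 genes, other pairs at -0.121 to 0.0985, and 1 of 3 P0 plates correlated best with its own number. With the replicate block, 226 genes were called between stages, and the differences were -0.36 for Slc12a2, 0.34 for Slc12a5 and -1.01 for Slc12a7, none past the threshold. Depth limits Slc12a7 and Slc12a4 most, with 235 and 7 counts on all plates.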
